A study of Mus musculus with 38 samples.

Results

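The genes described here encode the subunits of the mitochondrial respiratory chain and of ATP synthase that the cell nucleus supplies. They were chosen by name: every probe of the array whose gene symbol begins with Nduf followed by a, b, c, s or v and a digit, is Sdha to Sdhd, or begins with Uqcr, with Cox4 to Cox8, or with Atp5. Where a gene had several probes, the probe with the highest mean signal was kept. This gave 79 genes, measured by 98 probes, of the 16593 genes and 25697 probes of the array: 34 of complex I, 3 of complex II, 8 of complex III, 18 of complex IV and 16 of complex V.

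Cochlear explants from C57BL/6 mice aged 3 to 5 postnatal days were exposed to 0.4 mM kainate, a glutamate receptor agonist that injures the nerve endings on hair cells, for 2 h, or were left untreated. After 5, 24 or 72 h in culture each explant was dissected into the spiral ganglion fraction (SG), which holds the auditory neurons with their glia, and the remaining organ of Corti fraction (OC), which holds the hair cells and supporting cells. RNA from each fraction was hybridised to an Illumina BeadChip, with 19 arrays for each tissue. For SG there were 4 kainate and 4 control arrays after 5 h, 3 kainate and 2 control arrays after 24 h, and 3 of each after 72 h. For OC there were 4 kainate and 3 control arrays after 5 h, 2 kainate and 4 control arrays after 24 h, and 3 of each after 72 h. All groups were wild-type tissue of newborn animals grown without the rest of the ear, and the controls shared the dissection and the culture. In such mixed tissue, fewer cells of a type and less RNA per cell cannot be told apart.

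The respiratory chain passes electrons from NADH through complex I, or from succinate through complex II, to ubiquinone, then through complex III to cytochrome c, and through complex IV (cytochrome c oxidase) to oxygen. Complexes I, III and IV pump protons across the inner mitochondrial membrane, and complex V (ATP synthase) makes ATP from the proton gradient. Hair cells and auditory neurons are known for a high demand for ATP. Several small subunits of complex IV exist as paralogues: a form used in most tissues (Cox4i1, Cox6a1, Cox6b1, Cox7a2, Cox8a) and a form restricted to some tissues, such as Cox6a2, Cox7a1 and Cox8b of heart and skeletal muscle, Cox6b2, Cox7b2 and Cox8c of testis, and Cox4i2, best known from lung. Ndufa4 carries a complex I name but is now counted as a subunit of complex IV. It is kept here under complex I, as named. Ndufs5-ps carries the name of a pseudogene, so its signal may come from more than 1 transcript.

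Values are the authors' normalized signals on the log2 scale, so a difference of 1 is a 2-fold difference. A probe was taken as above background on an array where the scanner's detection p was under 0.01. Of the 79 genes, 71 were above background on all 38 arrays, Cox6a2 was on 25 arrays and Cox8b on 19, and 6 were on none: Atp5k, Cox7b2, Cox8c, Ndufs1, Uqcrfs1 and Uqcrq. Those 6 were measured at background only, and no statement about their expression can be made. The spread among arrays of the same group was small, with a median residual SD of 0.12 for the 79 genes against 0.17 for the 13792 probes above background on at least 2 arrays. Differences were tested with limma over all 25697 probes, with 1 mean for each of the 12 groups, with Benjamini-Hochberg adjusted p-values taken over the whole array. A difference between tissues or times was called at an adjusted p under 0.05.

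Between 10043 and 12171 probes were above background on an array. Markers checked the fractions: 8 of 12 neuronal markers were higher in SG and 9 of 11 markers of hair cells were lower there among controls (adjusted p under 0.05, limma). The arrays fall into 5 batches (black, blue, green, pink and purple in the colour bar of the study's clustering plot). The caption of that plot does not say what a batch was, and the study reported no batch effects from its clustering. A further set of values below describes the 7 arrays of the blue batch, on which several of the genes stood apart. SG 24 h control array 2 had a hair cell marker mean of 9.40, above the 8.57 to 9.12 of the other 8 SG control arrays, so it stood toward OC. Where either changes a call, the change is given with the result or with the alternatives.

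In the authors' normalized signals, most respiratory chain genes stood at almost the same level in the ganglion and in the organ of Corti. The genes above background on at least 2 arrays were bright. The median of their mean signals was 13.20, against 9.40 for all probes above background on at least 2 arrays. The part of signal level and of normalization in the small spread and small differences was not tested. The mean over the 79 genes was 12.30 to 12.42 on the 9 SG control arrays and 12.30 to 12.49 on the 10 OC control arrays. For the difference of SG minus OC in control explants, averaged over the 3 times, 68 of the 79 genes lay within 0.2 of 0, the median was −0.05, and 15 genes were called (19.0%), 3 higher and 12 lower in SG. Over all probes 23.1% were called with a median of −0.01, and among the probes above background on at least 2 arrays 38.7% were called, so the share of respiratory chain genes that differed lay below both in these values. The calls came from every complex: 7 of 34 genes in complex I, 1 of 3 in complex II, 1 of 8 in complex III, 4 of 18 in complex IV and 2 of 16 in complex V. Another scaling of the arrays (raw signals set to a common median) moved the split to 1 higher and 23 lower, with a median of −0.17 against −0.01 for all probes. The share called was then 30.4%, above the 26.2% of all probes. Cox6a2 was then the gene that stayed higher in SG.

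**Figure D1:**
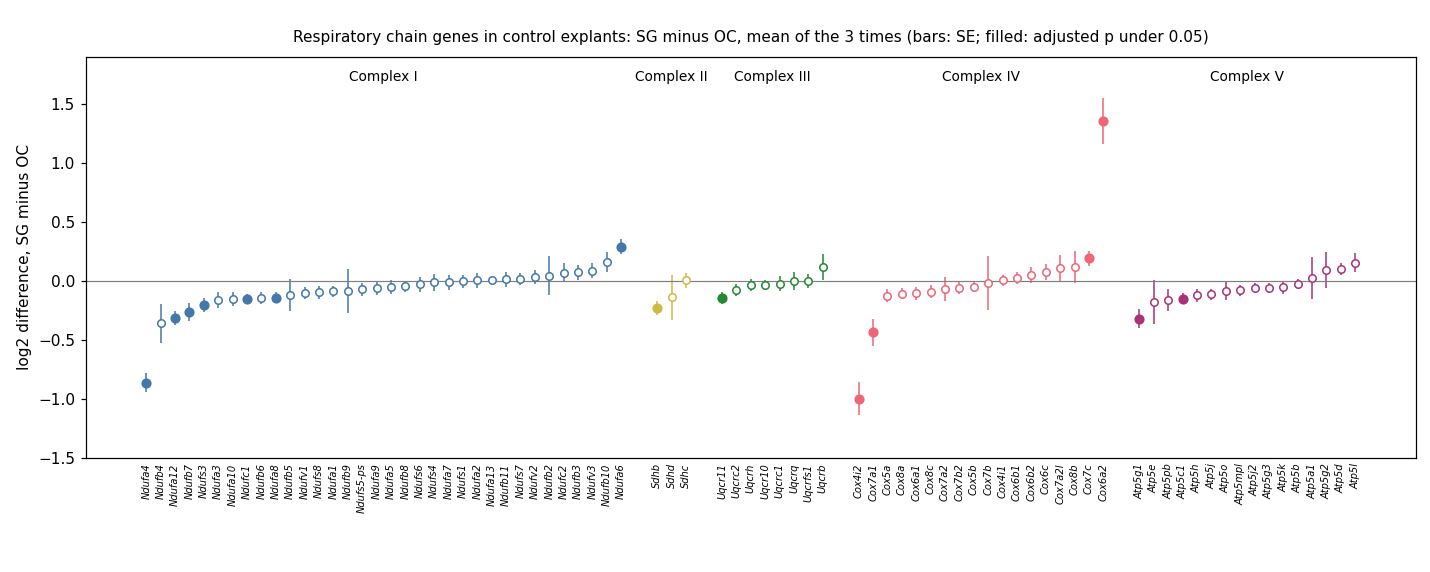
Log2 difference of SG minus OC in control explants for each of the 79 genes, ordered within complexes I to V, with bars for the SE and filled points for an adjusted p under 0.05. Most points lie within 0.2 of 0, and Cox6a2 (1.36), Cox4i2 (−1.0) and Ndufa4 (−0.86) lie farthest from it.

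The 3 largest differences belonged to subunits of complex IV. Ndufa4 had signals of 13.1 to 13.9 with a median of 13.3 on the SG control arrays and of 14.1 to 14.4 with a median of 14.3 on the OC control arrays. Every SG array was below every OC array. The difference was −0.86 (SE 0.08, adjusted p = 2.6e-10, limma), which is 1.82-fold lower in SG, and it was called at 5 h (−0.88), 24 h (−0.97) and 72 h (−0.73) alone. It was also −0.87, −1.02 and −0.61 within the green, pink and purple batches, which hold control arrays of both tissues at the same time.

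Cox4i2, the lung form of subunit 4, stood at 9.55 to 11.1 (median 10.2) in SG controls and at 11.1 to 12 (median 11.5) in OC controls. The highest SG array and the lowest OC array met at 11.1. The difference was −1.0 (SE 0.14, adjusted p = 9.1e-07), with a 95% interval of −1.28 to −0.72. It was −1.54 at 5 h, −0.56 at 24 h and −0.90 at 72 h, and was called at 5 h and 72 h. Its widespread paralogue Cox4i1 had nearly equal signals, 14.4 to 14.6 in both tissues, and a difference of 0.01 with an interval of −0.09 to 0.10.

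Cox6a2, the muscle form of subunit 6a, went the other way. It was above background on 9 of 9 SG control arrays, at 8.32 to 10.6 (median 9.27), and on 4 of 10 OC control arrays, at 7.49 to 8.64 (median 7.96). The ranges overlapped between 8.32 and 8.64. The fitted difference was 1.36 (SE 0.20, adjusted p = 1.8e-06), which includes OC values at background and so is no measured fold. It was 2.34 with neqc background correction. At 24 h and 72 h, with 2 of 4 and 2 of 3 OC arrays above background, the fitted differences were 1.38 and 1.60, both called. At 5 h none of the 3 OC control arrays was above background, so the OC level there is known only as an upper bound. The mean SG signal was 1.79-fold above that bound, a value that takes no account of the spread among arrays. The adjusted p of 0.016 (limma) tested the fitted difference of Cox6a2 at 5 h, not this fold. Its paralogue Cox6a1 had signals of 13.8 to 14.2 in SG and 13.9 to 14.2 in OC and a difference of −0.11 (adjusted p = 0.18). Markers of striated muscle did not separate the tissues: of 9 on the array 1 was higher and 1 lower in SG, their mean signal was 7.47 to 7.62 in SG controls and 7.44 to 7.64 in OC controls, and Myh1, Myh4, Myh8, Ckm, Tnnt3 and Mylpf were above background on 0 arrays.

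**Figure D2:**
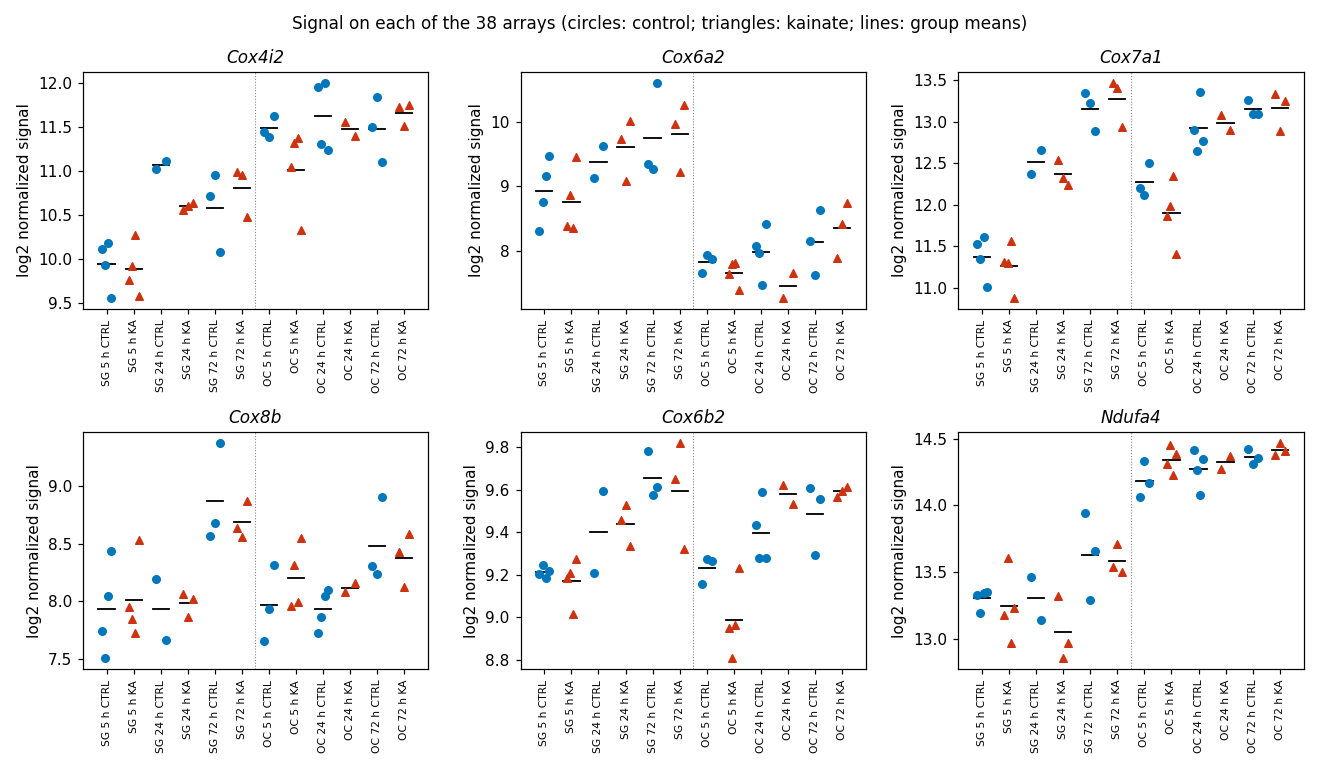
Log2 normalized signal of single genes on each of the 38 arrays by tissue, time and treatment, with circles for control, triangles for kainate and lines for group means. Cox4i2 and Ndufa4 sit lower and Cox6a2 higher in SG, and Cox7a1 rises with time in both tissues, from 11.01 to 11.61 on the SG control arrays at 5 h to 12.89 to 13.35 at 72 h.

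The other 12 genes called differed by less. In complex I, the accessory subunits Ndufa12 (−0.31, SE 0.06, adjusted p = 0.00012), Ndufb7 (−0.27), Ndufc1 (−0.15) and Ndufa8 (−0.14) and the core subunit Ndufs3 (−0.20) were lower in SG, and the accessory subunit Ndufa6 was higher (0.29, SE 0.07, adjusted p = 0.0011). A second probe of Ndufc1, above background on 38 arrays, was not called (−0.12, adjusted p = 0.18, limma). A second probe of Ndufa8, also above background on 38 arrays, was called (−0.28, adjusted p = 0.014, limma). Ndufa12 stood at 12.60 to 13.17 in SG and 12.99 to 13.33 in OC controls, and Ndufa6 at 13.8 to 14.2 and 13.5 to 14.0, so that both pairs of ranges overlapped. Sdhb, the iron-sulfur subunit of complex II, was lower in SG by both of its probes that were above background (−0.23, adjusted p = 0.0034, and −0.22, adjusted p = 0.016). Its remaining probe was above background on 0 arrays and differed by −0.02. Uqcr11, a small subunit of complex III, was lower by 0.14 (adjusted p = 0.035, the weakest of the calls).

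In complex IV, Cox7a1 was lower in SG (−0.44, SE 0.12, adjusted p = 0.0049) and Cox7c was higher (0.19, adjusted p = 0.026). The difference of Cox7a1 was called at 5 h (−0.90, adjusted p = 0.00072) and was −0.41 at 24 h and 0.00 at 72 h. In complex V, Atp5g1, 1 of the 3 genes for the c subunit of the rotor, was lower (−0.32, SE 0.08, adjusted p = 0.0024), at 13.1 to 13.5 in SG and 13.4 to 13.9 in OC. The other genes for the same protein, Atp5g2 (0.09) and Atp5g3 (−0.06), were not called. Atp5c1, the gamma subunit, was lower by 0.15 (adjusted p = 0.016). When the replicate number, taken to mark the explant that both fractions came from, was added as a block, 15 genes were again called, 12 of them shared. Ndufc1 (adjusted p = 0.078), Uqcr11 (0.18) and Ndufa8 (0.085) were then no longer called, and Ndufb4, Atp5e and Atp5l were. With batch as a fixed term 10 genes were called, 9 of them shared, and Atp5c1 (adjusted p = 0.078), Cox7c (0.063), Ndufs3 (0.12), Ndufa8 (0.068), Ndufc1 (0.12) and Uqcr11 (0.27) were lost. Uqcr11 was also lost without the blue batch (0.070), Ndufc1 (0.081) and Uqcr11 (0.20) without SG 24 h control array 2, and Ndufs3 (0.12), Ndufa8 (0.082), Ndufc1 (0.084) and Uqcr11 (0.26) without both.

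The 3 large differences also stood in the kainate-treated explants, which were other explants than the controls. SG minus OC in the kainate groups was −1.07 for Ndufa4, −0.95 for Cox4i2 and 1.56 for Cox6a2, whose OC level there was above background on 2 of 9 arrays, so that its value is no measured fold. Of the 79 genes 16 were called there, 2 higher and 14 lower, against 23.8% of all probes. The 2 sets shared 11 genes, which is 73.3% of the control set and 68.8% of the kainate set, and all 11 had the same direction. Without the blue batch, and also without OC 24 h kainate array 3 alone, 10 genes were called in the kainate explants, with Ndufa4, Cox4i2 and Cox6a2 among them.

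Other mitochondrial genes were counted beside the subunits, to be read against the 23.1% of all probes and 38.7% of probes above background that were called. Of the assembly factors, which build the complexes without being part of them, 16 of 33 on the array differed between SG and OC controls, 2 higher and 14 lower in SG (48.5%), with a median of −0.15. Sdhaf1, which assembles complex II, was −0.34, and Acad9 (−0.33), Foxred1 (−0.27), Ndufaf3 (−0.29) and Ndufaf4 (−0.27) of complex I and Cox15 (−0.28), which makes the haem of complex IV, were lower too, while Ttc19 of complex III was 0.45. Proteins of the mitochondrial ribosome, which translates the subunits coded in mitochondrial DNA, had 2 higher and 20 lower of 76 (28.9%), with a median of −0.07. Cyc1, the cytochrome c1 subunit of complex III whose symbol lies outside the naming rule, was −0.21 (adjusted p = 0.0007).

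Of the citric acid cycle 3 genes were higher and 4 lower of 18 (38.9%, about the share of all probes above background). Idh3g (0.21), Suclg2 (0.23) and Pdha1 (0.20) were higher, and Mdh2 (−0.33), Idh3a (−0.28), Suclg1 (−0.26) and citrate synthase Cs (−0.20) were lower. Of the regulators of mitochondrial biogenesis, the coactivator Ppargc1a (0.29) and the subunits of the GA-binding protein Gabpa (0.33) and Gabpb1 (0.20) were higher, and Polg2, the accessory subunit of the mitochondrial DNA polymerase, was lower (−0.39), 4 of 15 in all (26.7%). Glycolysis genes had 7 higher and 0 lower of 16 (43.8%), with a median of 0.27. The glucose transporter Slc2a1 (0.78), the neuronal enolase Eno2 (0.78) and the hexokinases Hk2 (0.50) and Hk1 (0.36) were among them. The neuronal markers moved in the same direction (8 higher and 0 lower of 12, median 0.60), as did those of Schwann cells (2 and 0 of 3, median 1.18), fibroblasts (3 and 1 of 6, median 0.41) and macrophages (1 and 0 of 5, median 0.39), and their part in these values was not tested.

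Over 72 h in culture 4 small subunits were called higher in the ganglion, 3 of them tissue-restricted forms of complex IV. In SG controls 4 of the 79 genes were called for 72 h minus 5 h, all higher (5.06%), against 15.4% of all probes (2103 higher and 1865 lower). The median of the 79 was −0.02, and 60 lay within 0.2 of 0. The 4 were Cox7a1 and Cox8b, muscle forms of complex IV subunits, Cox6b2, the testis form of subunit 6b, and Ndufa3, an accessory subunit of complex I. With arrays scaled to a common median, Cox6b2 and Ndufa3 were not called, Atp5o, Atp5pb and Ndufa12 were lower, and the split became 2 higher and 3 lower.

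The promoters of the 4 genes that rose with time in SG are shown with those of the widespread paralogues Cox7a2, Cox8a and Cox6b1, which did not pass the test. Cox7a1, Cox8b and Cox6b2 can so be set beside the form used in most tissues. No paralogue is shown for Ndufa3. The difference between paralogues in their change was not tested. They are the 250 bases before the start of the gene in RefSeq (build GRCm38.p6), 5′ to 3′ in the direction of transcription. Cox7a1 is at chr7:30183921-30184170 on the plus strand, Cox8b at chr7:140900447-140900696 on the minus strand, Cox6b2 at chr7:4753095-4753344 on the minus strand and Ndufa3 at chr7:3617123-3617372 on the plus strand. Cox7a2 is at chr9:79759854-79760103 on the minus strand, Cox8a at chr19:7217617-7217866 on the minus strand and Cox6b1 at chr7:30626115-30626364 on the minus strand. Capitals mark matches to 6 motifs searched on both strands: CCAAT (the CCAAT box, ATTGG on the opposite strand), TATAAA (the TATA box), CAGCTG (an E-box), ACGTG (the core of a hypoxia response element, CACGT on the opposite strand), CCGGAAG (an ETS site) and the consensus of the NRF1 factor (GCGCA, any base, then GCGC, or its reverse complement).
Cox7a1: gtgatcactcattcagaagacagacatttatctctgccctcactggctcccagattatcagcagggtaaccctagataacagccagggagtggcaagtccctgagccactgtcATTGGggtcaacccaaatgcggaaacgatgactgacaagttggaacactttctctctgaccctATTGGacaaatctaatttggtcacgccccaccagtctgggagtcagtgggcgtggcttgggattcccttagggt
Cox7a2: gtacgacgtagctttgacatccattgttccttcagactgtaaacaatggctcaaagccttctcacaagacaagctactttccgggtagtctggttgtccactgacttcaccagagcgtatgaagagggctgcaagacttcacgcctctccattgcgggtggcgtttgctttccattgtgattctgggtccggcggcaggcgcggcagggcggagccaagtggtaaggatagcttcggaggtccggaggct
Cox8b: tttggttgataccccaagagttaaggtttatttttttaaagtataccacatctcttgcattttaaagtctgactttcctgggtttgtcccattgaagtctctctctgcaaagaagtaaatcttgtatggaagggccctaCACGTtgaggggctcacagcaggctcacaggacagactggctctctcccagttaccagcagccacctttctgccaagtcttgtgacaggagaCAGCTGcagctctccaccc
Cox8a: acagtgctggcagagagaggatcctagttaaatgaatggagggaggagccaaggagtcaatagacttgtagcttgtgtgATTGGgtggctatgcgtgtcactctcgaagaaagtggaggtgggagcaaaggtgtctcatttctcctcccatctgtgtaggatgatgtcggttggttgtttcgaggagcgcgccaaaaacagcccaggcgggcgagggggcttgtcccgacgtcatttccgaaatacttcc
Cox6b2: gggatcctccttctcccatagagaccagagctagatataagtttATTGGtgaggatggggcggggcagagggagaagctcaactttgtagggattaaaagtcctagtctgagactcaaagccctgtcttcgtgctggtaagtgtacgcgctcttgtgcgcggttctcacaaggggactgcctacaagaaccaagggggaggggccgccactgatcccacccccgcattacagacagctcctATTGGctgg
Cox6b1: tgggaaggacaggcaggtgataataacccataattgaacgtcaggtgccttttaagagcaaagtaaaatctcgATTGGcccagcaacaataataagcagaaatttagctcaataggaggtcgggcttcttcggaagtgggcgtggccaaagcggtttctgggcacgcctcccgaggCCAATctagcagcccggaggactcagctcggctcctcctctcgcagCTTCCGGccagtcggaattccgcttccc
Ndufa3: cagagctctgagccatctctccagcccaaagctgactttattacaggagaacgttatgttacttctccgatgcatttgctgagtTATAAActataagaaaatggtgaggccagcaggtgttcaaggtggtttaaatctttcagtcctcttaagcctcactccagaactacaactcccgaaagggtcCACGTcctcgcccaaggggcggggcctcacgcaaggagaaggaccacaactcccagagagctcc

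CCAAT occurred 2 times in the windows of Cox7a1, Cox6b2 and Cox6b1 and 1 time in Cox8a. The Cox8b window held CACGT and, 14 to 19 bases before the start, CAGCTG. The Ndufa3 window held TATAAA and CACGT, the Cox6b1 window also held 1 CCGGAAG on the opposite strand, and the Cox7a2 window held none of the 6. No motif was present in all 4 genes that rose. Over the 64 of the 79 genes with an entry in the promoter table (69 promoters), the NRF1 consensus was found in 15.9% and CCGGAAG in 17.4%, against 3.74% and 6.91% of all 32851 promoters. CCAAT was found in 42.0% against 33.8%, ACGTG in 20.3% against 16.6%, TATAAA in 10.1% against 12.4% and CAGCTG in 7.25% against 13%. A match is a run of letters and no evidence of binding.

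Cox7a1 changed most. Its SG control arrays stood at 11.53, 11.34, 11.61 and 11.01 after 5 h, 12.37 and 12.66 after 24 h, and 13.35, 13.22 and 12.89 after 72 h. The 3 times did not overlap. The rise was 1.14 (SE 0.21, adjusted p = 0.0013) at 24 h and 1.78 (SE 0.19, adjusted p = 2.3e-08) at 72 h, a 3.44-fold increase. In OC it stood at 12.21, 12.12 and 12.50 after 5 h, 12.65 to 13.36 after 24 h and 13.26, 13.10 and 13.09 after 72 h, so that OC started higher. The rise in OC was 0.88 (SE 0.20, adjusted p = 0.0082), the only call among the 79 genes there, against 3.70% of all probes. The OC call was lost with arrays scaled to a common median and without OC 5 h control array 2. The rise was 1.82 within the purple batch in SG, and 0.98 and 1.05 within the black and purple batches in OC. The SG rise exceeded the OC rise by 0.91 (SE 0.28, adjusted p = 0.056), which misses the threshold here and passed it with the replicate block, with batch in the model or without the blue batch. The paralogue Cox7a2 changed by 0.04 in SG and 0.05 in OC.

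**Figure D3:**
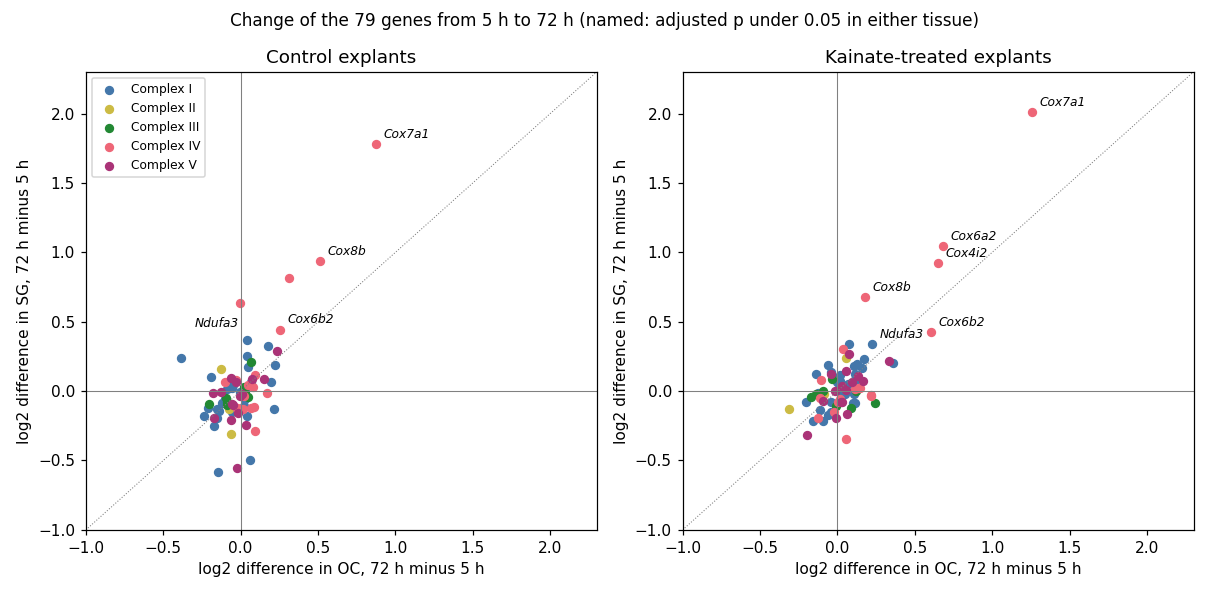
Log2 change from 5 h to 72 h of each of the 79 genes in OC (x axis) and in SG (y axis), for control and for kainate explants, coloured by complex, with the dotted line marking equal change and names for genes called in either tissue. Cox7a1 lies farthest out in both panels (1.78 in SG and 0.88 in OC for control), and most genes cluster near 0.

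Cox8b was near background at the start. The SG control arrays stood at 7.74, 7.51, 8.05 and 8.44 after 5 h, with 1 of 4 above background, 8.20 and 7.67 after 24 h, and 8.57, 8.68 and 9.37 at 72 h, all 3 above background. The 72 h arrays were above all earlier ones, the highest being the blue-batch array. The rise was 0.94 (SE 0.22, adjusted p = 0.0020), 0.69 (adjusted p = 0.026) without the blue batch and 1.81 (adjusted p = 0.0055) with neqc, the 5 h level being mostly at background. In OC it was 0.51 (adjusted p = 0.29), and Cox8a, its widespread paralogue, changed by −0.12 in SG (adjusted p = 0.38).

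Cox6b2 stood at 9.21, 9.25, 9.19 and 9.22 at 5 h and at 9.78, 9.58 and 9.61 at 72 h in SG controls. The groups did not overlap, and the rise was 0.44 (SE 0.11, adjusted p = 0.0036). A second Cox6b2 probe was above background on 0 arrays and differed by −0.02. Ndufa3 stood at 13.38, 12.96, 13.16 and 13.10 at 5 h and at 13.41, 13.56 and 13.60 at 72 h, with a rise of 0.37 (SE 0.11, adjusted p = 0.019). Within the purple batch that rise was 0.03, and without the blue batch the adjusted p was 0.058.

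Cox4i2 in SG controls moved early: 10.11, 9.93, 10.18 and 9.55 after 5 h, 11.02 and 11.11 after 24 h, and 10.71, 10.95 and 10.07 after 72 h. Both 24 h arrays were above all 5 h arrays, and the 72 h arrays overlapped them. The 24 h rise was 1.12 (SE 0.26, adjusted p = 0.011), and with Cox7a1 it made 2 calls, against 1.95% of all probes. Leaving out SG 24 h control array 3, which leaves 1 array in that group (assumed to vary like the others), ended both calls, and leaving out array 2, like the other scaling, left Cox7a1 alone. No gene was called for 24 h minus 5 h in OC, where 0.0623% of all probes were called. At an unadjusted p under 0.05 there were 3 of the 79, against 6.57% of all probes (limma).

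The kainate-treated explants, measured on separate arrays, were compared in the same way. For 72 h minus 5 h in SG, 6 genes were called, all higher (14.6% of all probes): Cox7a1 (2.01, adjusted p = 4e-09), Cox6a2 (1.05, adjusted p = 0.022), Cox4i2 (0.92, adjusted p = 0.0039), Cox8b (0.68, adjusted p = 0.030), Cox6b2 (0.43, adjusted p = 0.0055) and Ndufa3 (0.34, adjusted p = 0.035). All 4 of the control set were among them. Cox7a1 kept its call in 18 of 18 alternatives and the others did not. Scaling the arrays to a common median left Cox7a1 alone of the 6. Leaving out 5 h array 3, 72 h array 3 or 72 h array 4, the last of the blue batch, left 3 of the 6 each. Ndufa3 was lost without the blue batch (adjusted p = 0.11), and the replicate block lost Ndufa3 (adjusted p = 0.055). In OC, Cox7a1 (1.26, adjusted p = 6.6e-05) and Cox6b2 (0.60, adjusted p = 0.00056) were called, against 4.69% of all probes. Both were higher at 72 h.

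Ndufb7, an accessory subunit of complex I, was the 1 gene of the 79 called for a different change from 5 h to 72 h between the tissues in controls. The tissue and time comparisons share these control arrays. It stood at 9.98, 9.90, 9.70 and 9.62 in SG and at 10.41, 10.40 and 10.31 in OC controls at 5 h, where all SG arrays were lower. At 72 h it stood at 10.14, 9.89 and 10.09 in SG and 10.10, 9.82 and 10.06 in OC, and the tissues overlapped. The difference of the changes was 0.62 (SE 0.18, adjusted p = 0.036, limma), with 4.18% of all probes called. The call was lost in 11 of 24 alternatives, 9 of them the leaving out of a single array of 13 (adjusted p up to 0.13, without OC 72 h control array 3), and with the replicate block the adjusted p was 0.063. In the kainate explants it was 0.25 (adjusted p = 0.62).

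The genes around the respiratory chain moved little in one direction with time in SG. Against the 15.4% of all probes, 12.1% of the assembly factors were called, 3 higher and 1 lower of 33, namely Ttc19 (0.85), Atpaf2 (0.81, a chaperone of ATP synthase) and Cox17 (0.45, which carries copper to complex IV) against Ndufaf5 (−0.61). Of the biogenesis regulators the nuclear receptor Esrra rose (0.40, adjusted p = 0.0017) and the transcription factor Nrf1 fell by 0.33 (adjusted p = 0.017). Mitochondrial ribosomal proteins had 2 higher and 7 lower of 76 (11.8%), and Cyc1 fell by 0.28 (adjusted p = 0.0076). In the same arrays 8 of 12 neuronal markers fell and none rose, with a median of −1.13, and their mean signal went from 9.52 to 9.71 at 5 h to 8.45 to 8.52 at 72 h. The mean signal of 2 red blood cell markers, Hba-a1 and Alas2 (the latter above background on 0 arrays), went from 10.27 to 10.50 down to 7.53 to 7.87. Of the markers of striated muscle none was called with time, and of 6 pericyte and smooth muscle markers 1, Rgs5, was called (1.1, adjusted p = 0.00029), while Acta2 stood at −1.27 (adjusted p = 0.088) and the median of the list was 0.05. The part of cell composition in the changes of the 4 genes was not tested.

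Kainate against control was the main comparison of the study. Few respiratory chain genes were called in it, as was the case for all probes. The study called kainate genes by their unadjusted p, and its limit of 0.005 was used here. In SG this called 0 genes 5 h after treatment, when 0.389% of all probes were called, 1 gene after 24 h (1.1%) and 0 genes after 72 h (0.179%). In OC it called 0 genes at each time, where 0.136%, 0.272% and 0.257% of all probes were called. None had an adjusted p under 0.05 in any of the 6 comparisons (limma). At an unadjusted p under 0.05 the counts were 1, 2 and 1 in SG, against 3.28%, 7.0% and 2.72% of all probes, and 3, 1 and 1 in OC, against 2.53%, 3.44% and 3.07%.

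The median difference over the 79 genes, in the order of the times, was −0.04, −0.00 and 0.01 for SG and −0.01, 0.00 and 0.06 for OC. Between 67 and 76 of the 79 genes lay within 0.2 of 0 in each comparison. The precision differs with the number of arrays. In SG at 5 h the 95% interval of the difference lay within 0.5 of 0 for 70 genes and within 1 for 79, and in SG at 24 h, with 3 and 2 arrays, for 60 and 74.

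The gene called was Atp5o, the subunit that joins the head of ATP synthase to its stalk. It stood at 10.07, 10.10 and 9.95 on the SG kainate arrays at 24 h and at 9.34 and 9.79 on the control arrays. All 3 kainate arrays were higher, and the difference was 0.47 (SE 0.15), past the unadjusted limit and with an adjusted p = 0.43 (limma). In SG at 24 h no batch holds both kainate and control arrays, so batch and kainate cannot be told apart within a batch, and without control array 2 the difference was 0.25 and no gene was called. Without the blue batch it was 0.52 and also short of the limit. The difference of Atp5o was −0.02 in SG at 5 h and 0.02 at 72 h.

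**Figure D4:**
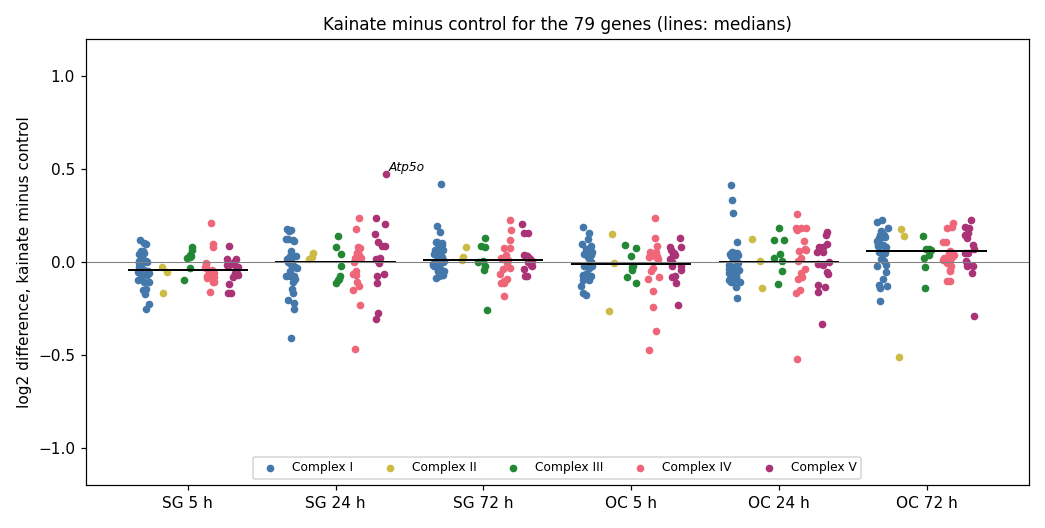
Log2 difference of kainate minus control for each of the 79 genes in the 6 comparisons of tissue and time, coloured by complex, with lines for the medians. The medians lie between −0.04 and 0.06 and single genes between −0.52 and 0.47.

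The remaining nominal differences were spread over the complexes. In SG, Atp5c1 was 0.20 at 24 h, and Cox7b2 (0.21 at 5 h) and Uqcrfs1 (−0.26 at 72 h) were probes never above background. In OC, Cox4i2 was −0.47, Cox6b2 −0.24 and Ndufb8 0.19 at 5 h, Atp5g1 was −0.33 at 24 h and Ndufv3 was 0.23 at 72 h. These are the genes whose kept probe had an unadjusted p under 0.05 in limma, apart from Atp5o. Other Ndufv3 probes, above background on 38 arrays, were 0.03 and 0.17 in OC at 72 h and did not pass that limit. Probes not kept passed it for Uqcr10 (0.25) and Atp5j (0.39) in SG at 24 h and for Ndufv3 (−0.18) in SG at 5 h.

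A further set of differences among respiratory chain genes went with the array batch. On the 7 arrays of the blue batch, against the mean of the other 4 batches with the 12 groups in the model, 28 of the 79 genes were called (35.4%), 13 higher and 15 lower, against 16.8% of all probes and 26.8% of those above background. With arrays scaled to a common median 54 were called, 3 higher and 51 lower, against 21.6% of all probes, with a median of −0.20 for the 79 genes and −0.03 for all probes. This comparison was added after the values had been seen. The lower genes came from all 5 complexes and included Sdhd, a membrane anchor of complex II (−0.90, SE 0.07), Atp5e, the epsilon subunit (−0.87, SE 0.07), Ndufb9 (−0.83), the catalytic-head subunit Atp5a1 (−0.79), Cox7b (−0.73), Ndufb2 (−0.71), Ndufb4 (−0.61), Ndufb5 (−0.54) and Uqcrb of complex III (−0.50). The higher ones included Atp5g2 (0.68), Cox6a2 (0.60), Cox8b (0.44) and Cox7a2l (0.33), of which Cox7a2l was not called under that scaling (0.06).

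Sdhd stood at 9.35 to 10.15 on the 7 blue arrays and at 10.35 to 11.01 on the other 31. Atp5e stood at 9.41 to 9.91 against 9.93 to 10.87, and Ndufb9 at 10.26 to 10.53 against 10.82 to 11.79. For 6 of the 79 genes (Atp5a1, Atp5e, Ndufb2, Ndufb9, Sdhd and Uqcrb) the blue arrays lay below all others, although they span 7 groups of both tissues, all times and both treatments. The share of all probes with such ranges is not given here, so the 6 genes cannot be set against it. All 7 blue arrays carry the replicate number 4, as do 3 arrays of other batches.

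**Figure D5:**
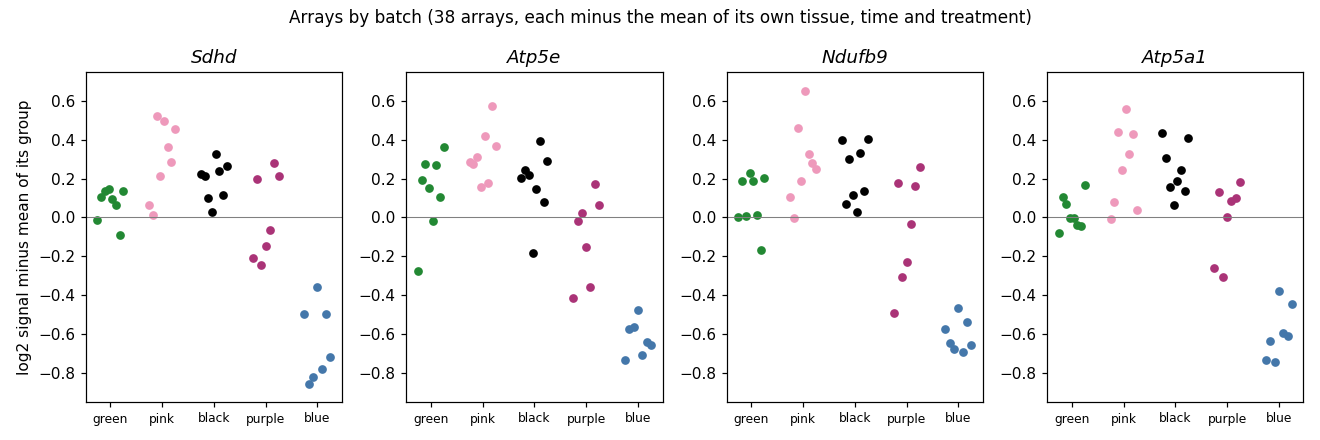
Log2 signal minus the mean of the array's own group of tissue, time and treatment, by batch, for single genes, with 1 point for each of the 38 arrays. For Sdhd and Atp5e the 7 blue arrays sit lowest, as in their signals of 9.35 to 10.15 and 9.41 to 9.91.

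Probes of 1 gene did not move alike across this batch. A second probe of Ndufa5 was −1.01 in the blue batch where the kept probe was 0.07, and the 4 probes of Ndufs4 were −0.48, −0.33, −0.23 and 0.12. Among the other batches 0 of the 79 genes were called in green (0.0117% of all probes), 2 in black (0.0623%), 10 in pink, all higher (2.68%), and 7 in purple, all lower (3.46%). Each was set against the mean of the other 4 batches, which includes blue. A gene low in blue is thereby raised in the others, and a gene high in blue is lowered. These counts are therefore not independent of the blue differences. The cause was not tested. The blue batch held 1 array in each of SG 5 h kainate, SG 24 h kainate, SG 72 h control, SG 72 h kainate, OC 5 h kainate, OC 24 h control and OC 72 h kainate. Without it, Ndufa4 (−0.86), Cox4i2 (−0.96) and Cox6a2 (1.26) kept their differences between tissues, and Cox7a1 rose by 1.91 in SG and 0.88 in OC.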

How the data were processed

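RNA of 38 fractions of cochlear explants was hybridised to MouseRef-8 v1.1 BeadChips. The deposited table holds log2 signals that the authors normalized by quantiles (they equal the log2 quantile normalization of the raw intensity values in the second deposited table, to within 4.99e-09) and a detection p-value per probe. The raw medians were 191 to 284 per array. The number of arrays limits the precision.

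Groups came from the sample titles. limma 3.58.1 (R 4.3.3) was applied to the authors' log2 signals, with 12 group means over all 38 arrays (26 residual degrees of freedom) and no covariates. Tests of tissue and time were called at a Benjamini-Hochberg adjusted p under 0.05 over all 25697 probes, and kainate at an unadjusted p under 0.005. The submitters' processing notes name limma. The fit was tested on simulated data.

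Gene symbols came from the platform annotation, which names 23978 probes, and all 79 symbols are current in the RefSeq table. Named genes were those with the smallest p in each complex for tissue and for time, those called with kainate, the paralogous forms, and genes rarely above background. Genes of the blue batch and Ndufb7 were chosen after their values were seen. The members and the lists of other genes were chosen with earlier results of these data known. Batches were read from the colour bar of the study's clustering plot. Same-numbered SG and OC arrays were taken to come from 1 explant, which the sample titles do not state. Their deviations from the group means correlated at 0.16 to 0.58 in 16 of 16 pairs. Same-numbered control arrays of different times, which are other explants, also correlated above 0.1 in 11 of 15 pairs. Kainate and control arrays are other explants; their same-numbered arrays correlated above 0.1 in 4 of 4 pairs in SG and 3 of 3 in OC at 5 h, and not in all pairs at 24 h or 72 h. Promoters were taken from RefSeq, build GRCm38.p6. Alternatives were another scaling, neqc background correction, a filter on dim probes, the replicate block, batch terms, array weights, and leaving out arrays.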

Additional observations from a re-analysis of the deposited data

Results flagged for a closer look

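Among the 43 genes named by rule, the 4 groups of 4 arrays were searched for 1 array far from the other 3, measured as the gap to the nearest array over the range of the group. Of 172 such tests 12 passed Dixon's critical value, and chance passes about 1 in 20. In SG 5 h controls, Atp5j was high on array 2 (13.99 against 13.87 to 13.88, ratio 0.963), Atp5j2 was low on array 1 (14.60 against 14.70 to 14.71, ratio 0.889) and Ndufa4 was low on array 2 (13.19 against 13.33 to 13.35, ratio 0.836). In SG 5 h kainate, Ndufa6 was high on array 4 (14.14 against 13.79 to 13.84, ratio 0.869). In OC 5 h kainate, Uqcr10 was low on array 3 (14.34 against 14.52 to 14.53, ratio 0.956) and Cox8c, never above background, was low on array 4 (7.05 against 7.21 to 7.24, ratio 0.844).

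In OC 24 h controls 6 genes were set apart. Ndufa3 was low (13.40 against 13.62 to 13.64, ratio 0.889) and Ndufa9 high (13.05 against 12.86 to 12.89, ratio 0.838) on array 2. Uqcr11 was low on array 3 (14.18 against 14.33 to 14.36, ratio 0.849) and Uqcrc2 was high on array 1 (14.03 against 13.80 to 13.83, ratio 0.883). Uqcrb was low (12.29 against 12.81 to 12.84, ratio 0.951) and Uqcrc1 high (12.35 against 12.24 to 12.25, ratio 0.906) on array 4, which is of the blue batch. Of the 12, 4 were on arrays of that batch, which holds 1 array in each of these groups except SG 5 h controls, where it holds none.

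Ndufb7 is listed because its change from 5 h to 72 h in control explants differed between SG and OC by 0.62 (adjusted p = 0.036, limma), a call lost in 11 of 24 alternatives. In the kainate explants it was 0.25 (adjusted p = 0.62).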

How the results depend on the processing

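For SG against OC in controls, 24 genes were called (1 higher, 23 lower) with arrays scaled to a common median, instead of 15, and leaving out single arrays gave 13 to 17. For SG at 24 h against 5 h, the scaling gave 1 call and leaving out single arrays 0 to 2. For SG at 72 h against 5 h, the replicate block and batch as a random block each gave 7 calls, with Cox4i2 and Cox6a2 added under both, and leaving out arrays gave 4 to 6. For OC at 24 h, batch as a fixed term gave 1 call, Cox7a1, and leaving out arrays gave 0. For OC at 72 h, the scaling gave 0 calls, batch as a fixed term 2 and leaving out the blue batch with SG 24 h control array 2 gave 2, Ndufb7 being added under both, and leaving out single arrays gave 0 to 1 (0 without OC 5 h control array 2).

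For kainate in SG at 24 h, 0 genes were called with neqc, with the filter on dim probes, with the replicate block, with batch as a fixed term or a random block, and without the blue batch, with or without SG 24 h control array 2. Leaving out single arrays gave 0 to 1 there (0 without kainate array 1 or 3 or control array 2), 0 to 1 for SG at 5 h (Cox7b2, without control array 2), 0 to 1 for OC at 24 h (Atp5g1, without kainate array 3), and 0 in the other comparisons. For kainate in OC at 5 h, 1 gene, Cox6b2, was called lower without the blue batch, under both settings. The replicate block was made for every comparison of groups but could not be for the blue batch, whose arrays all have number 4. Times are paired by number only. Beside the calls named, the block moved no other count by over 1.5 times.

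Alternatives for the 5 results that follow were chosen after seeing the data. SG against OC in kainate explants gave 10 calls instead of 16 with the scaling and without the blue batch, with or without SG 24 h control array 2, and 10 to 18 without single arrays. SG kainate at 72 h gave 3 calls instead of 6 with the scaling (1 higher, 2 lower) and with arrays of the compared groups alone, 10 with batch as a fixed term and 3 to 8 without single arrays. OC kainate at 72 h gave 5 instead of 2 with batch as a fixed term, 4 as a random block and 2 to 3 without single arrays. The SG change minus OC change gave 0 calls instead of 1 with the scaling, 2 with the filter on dim probes, batch as a fixed term or a random block, arrays of the compared groups alone, or without the blue batch and SG 24 h control array 2, 3 without the blue batch (Cox7a1 and Cox4i2 added) and 0 to 1 without single arrays. The blue batch gave 54 calls instead of 28 with the scaling and 24 to 28 without single arrays.

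No call on a gene changed sign. Medians near 0 did, such as that of kainate in OC at 72 h, which ranged from −0.05 to 0.09. Ndufa3 with time in SG controls lost its call in 8 of 18 alternatives, Uqcr11 between control tissues in 16 of 30 and Atp5o with kainate in 11 of 16, whereas Cox7a1 and Cox8b kept theirs there in 18 of 18. The median difference of the 79 genes between SG and OC ranged from −0.17 to −0.04. With 2 to 4 arrays a group, any difference within a single gene's interval remains possible, and 6 genes were above background on 0 arrays.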
